A study of Mus musculus with 27 samples.

Results

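Interferon-stimulated antiviral genes and CXCR3 ligands are described here in mouse kidneys 24 h after ischemia. The group holds 9 genes of the 19392 in the expression table. They were chosen by symbol, and all 9 have a row: the 7 antiviral genes Isg15, Ifit1, Ifit2, Ifit3, Oasl2, Rsad2 and Ifi44, and the 2 chemokines Cxcl9 and Cxcl10. All mice were C57BL/6 and wild type. The study describes removal of the right kidney for its model, with 0 min among the ischemia times, but does not describe the surgery of the sham mice separately. In 24 mice the left renal pedicle was clamped for 16, 18, 20, 22, 24, 26, 28 or 30 min (3 mice at each time, the clamped kidneys). In 3 control mice it was clamped for 0 min (the sham group). The left kidneys were taken after 24 h of reperfusion and analysed by RNA-Seq. The age and sex of the mice are not given in the sources used here. Values are FPKM, a level in which the fragments of a gene are divided by its transcript length and by the mapped fragments of the library.

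Cells that sense virus, foreign nucleic acid or damage release type I interferons, which bind the receptor chains IFNAR1 and IFNAR2 on the same and neighbouring cells. Through the kinases JAK1 and TYK2 this assembles a complex that holds STAT2 and IRF9 and binds the interferon-stimulated response element (ISRE) of target genes. Interferon gamma acts through IFNGR1 and IFNGR2 and the kinases JAK1 and JAK2, and its signal reaches the gamma-activated site (GAS) of target genes. ISG15 is a ubiquitin-like protein that is joined to other proteins. The IFIT proteins bind viral RNA, OASL2 is a relative of the enzymes that start RNase L cleavage, and RSAD2 (viperin) makes a chain-terminating nucleotide. IFI44 is an interferon-induced protein of the cytoplasm. CXCL9 and CXCL10 attract activated T cells and NK cells through their receptor CXCR3. Interferon gamma is the main inducer of Cxcl9, while Cxcl10 also responds to type I interferon.

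The genes lie on 5 chromosomes (GRCm38, GENCODE M21). Ifit2 (chr19:34550694-34576419), Ifit3 (chr19:34583531-34588731) and Ifit1 (chr19:34640871-34650009) share a stretch of 99.3 kb with 3 relatives, Ifit1bl1, Ifit3b and Ifit1bl2. Cxcl9 (chr5:92321347-92328079) and Cxcl10 (chr5:92346638-92348889) are 18.6 kb apart. Oasl2 is on the same chromosome (chr5:114896936-114912234). The others are Isg15 (chr4:156199424-156200818), Rsad2 (chr12:26442746-26456452) and Ifi44 (chr3:151730922-151749960). Ifit3b is a close copy of Ifit3, so the split of reads between the pair is uncertain. Ifit3b stood at 3.93, 32.0 and 29.5 FPKM in the 3 kidneys at 0 min and between 2.06 and 10.4 FPKM in the clamped kidneys. An exon of Art3 on the other strand overlaps the last 133 bases of Cxcl10, and whether counting used strand is not given in the sources used here. Art3 ranged from 0.28 to 2.59 FPKM over all 27 kidneys.

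Promoter windows of 300 bases, from 250 before to 50 after the transcription start, were found for 9 of 9 genes in RefSeq (GRCm38.p6), with 2 windows for Ifit2. The windows below hold the letters of the ISRE, taken as GAAA, any 2 bases and GAAA again, and are shown because they carry the sequence through which the type I interferon pathway is known to act. The letters were searched on both strands, capitals mark the matches (with TTTC in place of GAAA where the match is on the other strand), and each window is printed 5′ to 3′ in the direction of the gene.
Isg15 (chr4:156200850-156200921, minus strand): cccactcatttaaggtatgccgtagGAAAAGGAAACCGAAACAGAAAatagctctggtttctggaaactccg
Ifit1 (chr19:34640760-34640838, plus strand): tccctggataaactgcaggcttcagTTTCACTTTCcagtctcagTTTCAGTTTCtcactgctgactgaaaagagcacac
Ifit3 (chr19:34583348-34583441, plus strand): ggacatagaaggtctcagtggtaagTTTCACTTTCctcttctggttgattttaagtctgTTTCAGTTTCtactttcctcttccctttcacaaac
Rsad2 (chr12:26456538-26456597, minus strand): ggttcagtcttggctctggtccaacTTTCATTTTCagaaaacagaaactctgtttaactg
Cxcl10 (chr5:92349068-92349127, minus strand): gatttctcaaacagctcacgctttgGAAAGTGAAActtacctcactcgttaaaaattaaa

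Isg15 held 3 overlapping matches that begin 78, 72 and 66 bases before the start. Ifit1 held 2, at 104 and 85 bases, and Ifit3 held 2, at 156 and 122 bases, both pairs on the other strand. The single match of Rsad2 began 120 bases and that of Cxcl10 213 bases before the start. So 5 of the 9 genes had the letters in this window, against 3.99% of all 27025 genes with a promoter (3.44% of all 32851 windows). The GAS letters, TTC and GAA with any 3 bases between them, read the same on both strands and occurred in 9.55% of all genes (8.3% of all windows) and in 1 member, Ifit2, where they began 241 bases before a start. No GAS match overlapped an ISRE match. Oasl2, Ifi44 and Cxcl9 had neither set of letters in this window. Among the other interferon-induced lists, 10 of 20 antiviral genes, 5 of 5 guanylate-binding proteins and 5 of 5 immunity-related GTPases with a window had an ISRE match. These matches describe letters and not bound sites.

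**Figure D1:**
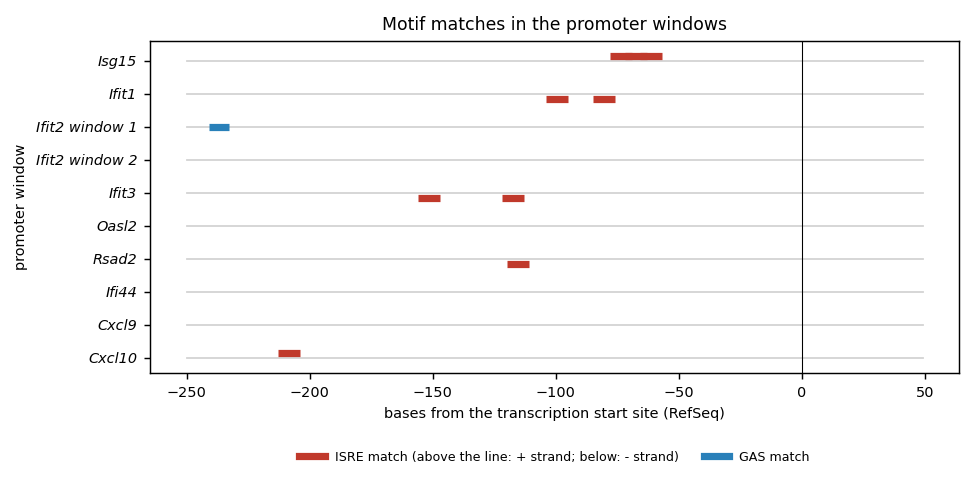
Position of ISRE (red) and GAS (blue) letter matches in the 10 promoter windows of the 9 genes, in bases from the RefSeq transcription start; each grey line is 1 window of 300 bases. The matches of Isg15, Ifit1, Ifit3 and Rsad2 lie between 156 and 57 bases before the start, and the match of Cxcl10 begins 213 bases before it.

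The 3 kidneys at 0 min did not resemble each other in these genes. Isg15 stood at 3.24, 41.2 and 44.5 FPKM in 0 min replicates 1, 2 and 3. Across the 24 clamped kidneys it ranged from 3.52 to 12 FPKM with a median of 6.34 FPKM. So replicates 2 and 3 lay above every clamped kidney, and replicate 1 lay below every one of them. All 3 carry the same label, and the counts of genes called against 0 min below are therefore also given without single kidneys of that group. The summed FPKM of a kidney (512453 to 554036) and the number of genes above 0 (16498 to 16904) differed little between libraries, and read depth, judged from the step of 1 read in 86 low genes, lay within 0.938 and 1.08 times its median; the total number of reads is unknown.

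Oasl2 followed the pattern of Isg15, with 3.26, 46.0 and 46.2 FPKM at 0 min against 3.48 to 8.95 FPKM (median 5.52) in the clamped kidneys. Ifit1 stood at 1.92, 27.03 and 33.1 FPKM at 0 min and at 1.03 to 4.68 FPKM (median 2.89) after clamping. In both genes 0 min replicate 1 was at or near the bottom of the series: 24 of 24 clamped kidneys exceeded it for Oasl2 and 20 of 24 for Ifit1.

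Ifit3, the most abundant of the 9 at 0 min, stood at 19.3, 146 and 181 FPKM there. The clamped kidneys held 7.94 to 37.5 FPKM with a median of 23.8 FPKM, and 16 of 24 exceeded 0 min replicate 1. Ifit2 stood at 4.86, 20.7 and 18.6 FPKM at 0 min and stayed within a narrow band of 3.7 to 6.06 FPKM (median 4.67) after clamping. Its 0 min replicate 1 lay in the middle of that band, with 10 clamped kidneys above it.

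In Rsad2 and Ifi44, by contrast, 0 min replicate 1 lay above all or nearly all clamped kidneys. Rsad2 stood at 11.3, 17.3 and 17.7 FPKM at 0 min against 3.57 to 7.85 FPKM (median 5.77) in the clamped kidneys. It was the only member for which all 3 kidneys at 0 min lay above all 24 clamped kidneys, which held for 3.74% of the 18188 genes tested. Ifi44 stood at 5.33, 13.4 and 14.9 FPKM at 0 min and at 1.79 to 5.53 FPKM (median 3.42) after clamping, and only 18 min replicate 3 exceeded 0 min replicate 1.

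The chemokines differed from each other. Cxcl10 stood at 3.7, 79.6 and 48.7 FPKM at 0 min, and the clamped kidneys at 3.14 to 28.4 FPKM with a median of 11.6 FPKM. Of these 24 kidneys 23 lay above replicate 1. Cxcl9 was low everywhere, at 0.81, 0.61 and 0.33 FPKM at 0 min and 0.02 to 1.04 FPKM (median 0.2) after clamping. For Cxcl9 the order at 0 min was turned round, with the highest value in replicate 1, and the highest of all kidneys was 18 min replicate 1.

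**Figure D2:**
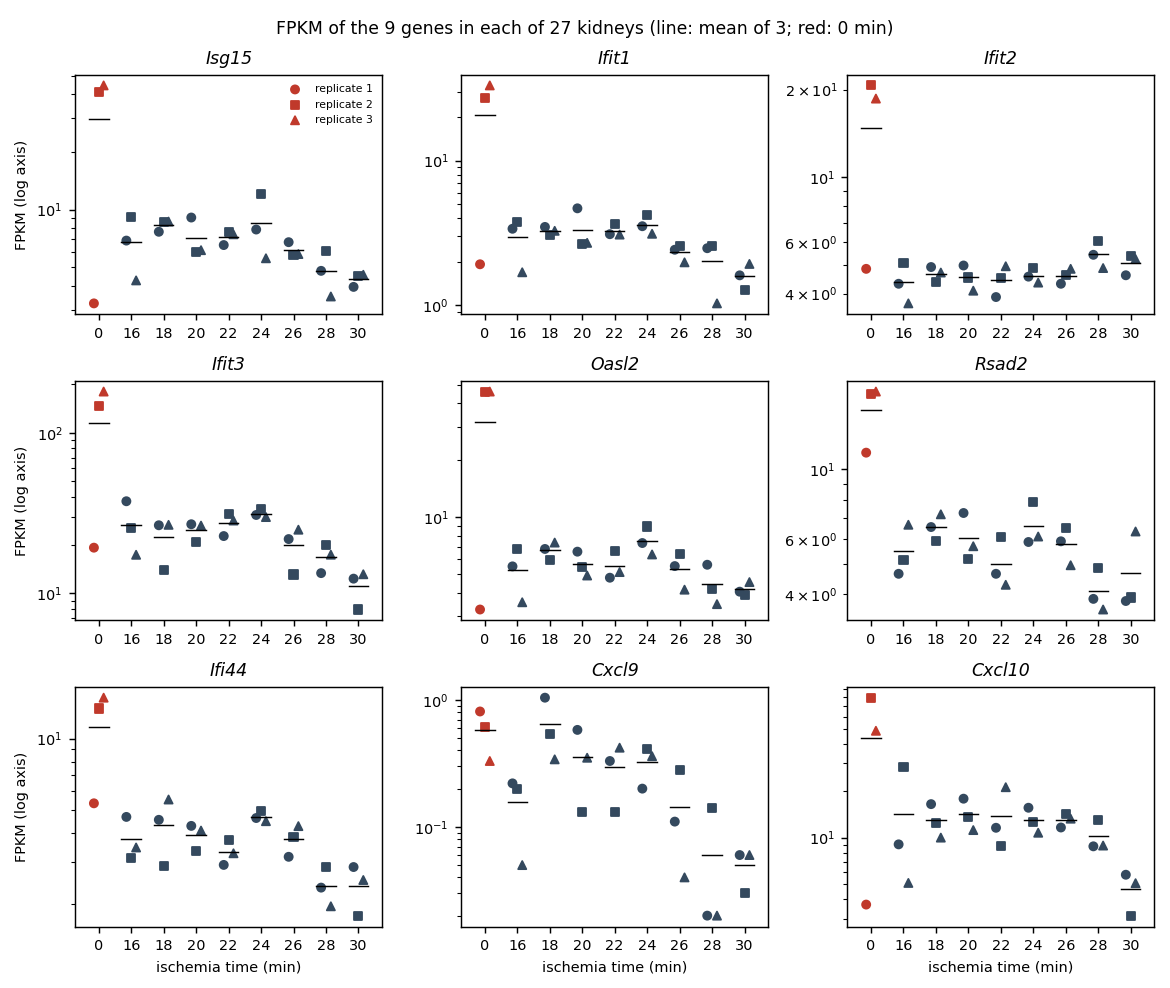
FPKM of each gene in the 27 kidneys on log axes, by ischemia time in minutes; symbols give replicates 1 to 3, red marks 0 min, and short lines are means of 3 kidneys. In 7 antiviral genes and Cxcl10, replicates 2 and 3 at 0 min lie above all clamped kidneys, while replicate 1 lies above all of them for Rsad2 only. Of all genes tested, 9.12 and 7.78% lie above all clamped kidneys in replicates 2 and 3. The share for replicate 1 is 9.63%, and its single gene here is near that share.

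The spread at 0 min was accordingly wide. On the log2(FPKM + 1) scale the SD of Isg15 was 1.91 at 0 min and between 0.090 and 0.50 in the 8 clamped groups (n = 3 each). Cxcl10 had the widest SD at 0 min, 2.16, and 16 min was its most variable clamped group, at 1.14, with kidneys at 9.04, 28.4 and 5.1 FPKM. Rsad2 had an SD of 0.32 at 0 min, about that of its most variable clamped group (0.31).

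Ordered by group mean, 0 min ranked first for 8 of the 9 genes and second for Cxcl9, behind 18 min (0.583 ± 0.241 against 0.640 ± 0.361 FPKM, SD, n = 3). Isg15, for example, averaged 29.6 ± 22.9 FPKM in the 0 min group. Its highest clamped mean was 8.48 ± 3.26 FPKM (24 min) and its lowest 4.34 ± 0.340 FPKM (30 min). The 24 min group ranked second for 6 of the 7 antiviral genes. The 28 and 30 min groups ranked in the last 2 places for every gene but Ifit2, for which they ranked just behind 0 min, at 5.46 ± 0.586 and 5.08 ± 0.406 FPKM. Neighbours in these orders overlapped in nearly all cases: of 8 neighbouring pairs per gene, the ranges were apart in 2 for Ifi44, in 1 each for Isg15, Ifit3, Rsad2 and Cxcl10, and in none for Ifit1, Ifit2, Oasl2 and Cxcl9.

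The first question of the design is how kidneys at each ischemia time differ from kidneys clamped for 0 min. A gene was called when limma's adjusted p was under 0.05 (Benjamini-Hochberg, over all 18188 genes tested) and the log2 fold change on the log2(FPKM + 1) scale was beyond 1. At 16 min 6 of 9 members fell, against 0.979% of all genes; these were Ifit1, Ifit2, Ifit3, Oasl2, Rsad2 and Ifi44. The same 6 fell at 18 min (background 1.09%), 20 min (0.962%) and 22 min (1.2%), and 5 of them, without Oasl2, at 24 min (1.15%). At 26 min (1.61%) and 28 min (4.21%) Isg15 joined them, with Oasl2 among the 7 called. At 30 min (5.59%) 8 of 9 fell, Cxcl10 included. No member rose at any time, while 1.28, 1.97, 1.55, 2.09, 1.97, 2.16, 4.27 and 5.14% of all genes did from 16 to 30 min. Cxcl9 was never called, with log2 fold changes between -0.10 and -0.68. It could not be called lower: at 0.81, 0.61 and 0.33 FPKM at 0 min, even a fall to 0 FPKM stays within the fold threshold. These 8 comparisons share the same 3 kidneys at 0 min. Each standard error (SE) and limma p rests on 1 spread shared by the 9 groups. Where 0 min was the more spread group, SEs and p-values against 0 min are therefore too small. Isg15 is such a gene, with an SD of 1.91 at 0 min and at most 0.50 in the clamped groups.

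At 30 min the largest decrease was in Ifit3, with a log2 fold change of -2.81 (SE 0.51, adjusted p = 9.9e-05 from limma). Ifit1 followed at -2.52 (SE 0.54) and Cxcl10 at -2.35 (SE 0.68, adjusted p = 0.0062). Rsad2 had a smaller fold change of -1.64 with the smallest SE of the antiviral genes, 0.18 (adjusted p = 1.8e-07). In most of these comparisons the groups overlapped, and in all that did, except Cxcl9 at 20, 22 and 24 min, 0 min replicate 1 lay at or below the highest kidney of the clamped group. The kidneys at 16 min were all below those at 0 min for 3 of 9 members (Rsad2, Ifi44 and Cxcl9; 7.54% of all genes), and those at 30 min for 4 of 9, with Ifit3 added (21.2%).

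Over all clamped groups together, 7 of 9 members were lower than at 0 min, against 1.71% of all genes in that direction; none was higher, against 2.2%. The log2 fold changes were -2.03 for Ifit1 (SE 0.41), -1.91 for Ifit3 (SE 0.38), -1.80 for Oasl2 (SE 0.40) and -1.53 for Isg15 (SE 0.41). Ifi44 (-1.45, SE 0.18), Rsad2 (-1.43, SE 0.13) and Ifit2 (-1.35, SE 0.21) changed less but with smaller errors. Cxcl10 was not called (-1.25, SE 0.51, adjusted p = 0.053 from limma). Cxcl9, too low at 0 min for any decrease to pass the fold threshold, stood at -0.46 (SE 0.10, adjusted p = 0.0014 from limma). An exact two-sided permutation test over the 2925 ways to draw 3 of 27 kidneys gave p under 0.05 for 9 of 9 members, all lower, against 22.4% of all genes. It compares plain means and treats all 27 kidneys as exchangeable. Where the 3 kidneys at 0 min were the more spread group, its p-values can therefore be too small as well. In this permutation test Rsad2 and Ifi44 reached p = 0.00034, the smallest that the design allows. Cxcl10 had the largest permutation p of the 9, 0.027 (0.077 after adjustment over all genes). Without 0 min replicate 2 or 3 the permutation test gave 5 members in place of 9, and the share of all genes in those refits is not given here.

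**Figure D3:**
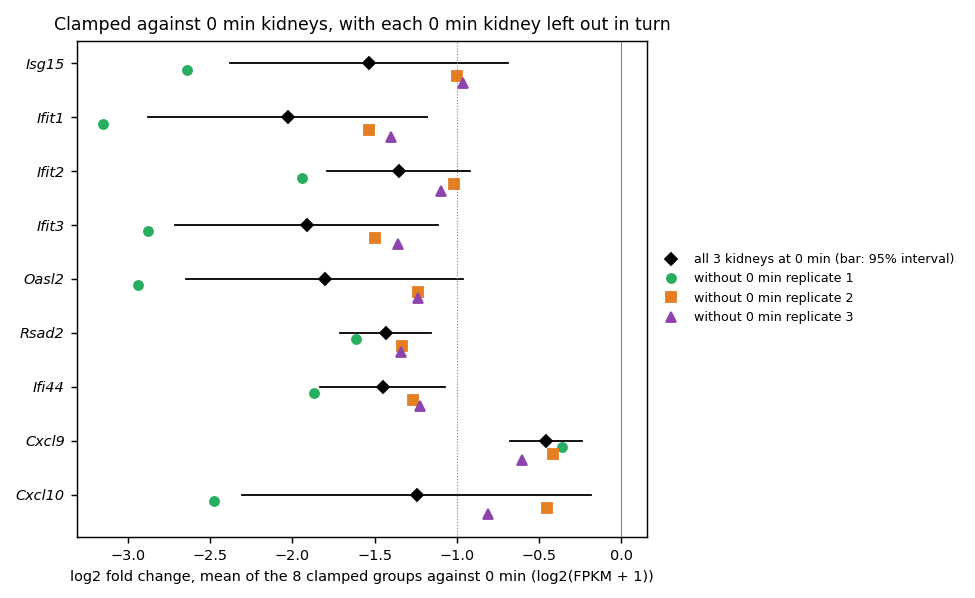
Log2 fold change of the mean of the 8 clamped groups against 0 min for each gene (diamonds, with 95% intervals), and the same value with each kidney at 0 min left out in turn. The intervals use 1 spread shared by the 9 groups and are too narrow where 0 min was the more spread group. Rsad2 moves only between -1.62 and -1.34, while Cxcl10 moves between -2.48 and -0.45.

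The calls depended on which kidneys stood for 0 min. Without 0 min replicate 1, 8 of 9 members were called at each of the 8 times, all but Cxcl9. Without replicate 2 the counts were 3, 3, 3, 3, 2, 5, 5 and 6 from 16 to 30 min, and without replicate 3 they were 3, 3, 3, 3, 2, 5, 5 and 8. Of all genes, 5.53, 5.39 and 5.82% were called lower at 30 min without replicates 1, 2 and 3. Over the clamped groups together the shares were 1.85, 1.59 and 1.78%. Shares for the shorter ischemia times in these refits are not given here. Ifit2 and Rsad2 were called at 16 and 24 min in all of these fits, whereas Isg15 at 24 min went from -2.34 without replicate 1 to -0.70 without replicate 2 and -0.66 without replicate 3. In fits of 2 groups alone, in which the spread came from 6 kidneys, between 0 and 2 of 9 members were called at any time. At 16 min that count was 0 in limma, with 4 members at an unadjusted p under 0.05, against 6 called and 8 at an unadjusted p under 0.05 in the fit of all 27 kidneys. The share of all genes called in the fits of 2 groups is not given here, so whether only the members lost calls is left unanswered.

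Marker genes of some other cell types also set 0 min replicate 1 apart from replicates 2 and 3. Summed over 8 T cell markers, it held 6.91 FPKM, against 2.74 and 2.03 FPKM in replicates 2 and 3 and 1.32 to 5.58 FPKM in the clamped kidneys. Cd3e, a chain of the T cell receptor complex, stood at 0.58, 0 and 0.04 FPKM. Summed over 7 NK and cytotoxic cell markers it held 8.45 FPKM, against 3.84 and 4.6 FPKM and a clamped range of 0.95 to 6.82 FPKM. Ccl5 gave 5.59 FPKM of that sum, as much as in the highest clamped kidney. In replicate 1, 4 of the 7 lay above all clamped kidneys (9.63% of all genes tested) and 3 did not. Of those 3, Ncr1 stood at 0, 0.04 and 0.21 FPKM and Klrb1c at 0.05, 0.03 and 0.05 FPKM at 0 min. The 4 haemoglobin genes summed to 643 FPKM in replicate 1 and to 204 and 122 FPKM in the others, which is below the clamped range of 346 to 1465 FPKM, and all 4 were called higher over the clamped groups together (1 without 0 min replicate 2, and none past the fold threshold without replicate 3). The 5 neutrophil markers summed to 5.26, 9.52 and 11.5 FPKM, and the 11 kidney epithelial markers, which include the proximal tubule receptor Lrp2, to 5148, 5024 and 4639 FPKM. Both sums lay within the clamped range in all 3 kidneys. So did those of B cells (1.07, 0.89 and 0.69 FPKM) and macrophages (66.4, 72.7 and 80.3 FPKM). Sums of conventional dendritic cell (3.23, 3.99 and 3.66 FPKM) and endothelial markers (75.5, 69.4 and 82.8 FPKM) also lay within it. The 4 plasmacytoid dendritic cell markers, of a cell type known for type I interferon, summed to at most 1.02 FPKM in any kidney, with Siglech at 0 in replicate 2. Their part in the difference between the 3 kidneys was not tested. In whole kidney RNA, fewer cells of a type and less RNA per cell cannot be told apart.

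Genes acting before the members in the pathway did not all share the pattern. Of 9 interferon genes listed, 3 were in the table. Ifnb1, the type I interferon beta, was listed at 0 in all 3 kidneys at 0 min and at no more than 0.08 FPKM after clamping. Ifnk reached 0.08 FPKM at most. Ifng stood at 0.11, 0.10 and 0.05 FPKM at 0 min and had a median of 0 in the clamped kidneys. The levels of the ligands were thus at or near 0 in all 27 kidneys.

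None of the 6 receptor genes passed the fold threshold over the clamped groups together in limma. Of the 5 with an adjusted p under 0.05, Ifnar1, Ifngr1, Ifngr2 and Il10rb had positive log2 fold changes (0.12 to 0.84) and Ifnlr1 a negative one (-0.22); the value for Ifnar2 was 0.12. Ifngr2 stood at 12.7, 13.8 and 13.1 FPKM at 0 min and 14.4 to 43.0 FPKM in the clamped kidneys, and it rose against 0 min in the 30 min group (log2 fold change 1.54, adjusted p = 4.0e-07 from limma; 5.14% of all genes were called higher), also without any 1 of the kidneys at 0 min (1.51 to 1.58). Ifnar1 stood at 9.6, 8.8 and 9.55 FPKM at 0 min and 8.78 to 13.4 FPKM after clamping. In both of these receptors the 3 kidneys at 0 min lay close together, and in none of the 6 did any of them lie above all clamped kidneys. Of all genes tested, 9.63, 9.12 and 7.78% did so in replicates 1, 2 and 3.

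Among 7 signal transducers, 3 fell over the clamped groups together (Stat2, Irf1 and Irf7) and none rose. Irf7, which amplifies interferon transcription, stood at 18.7, 143 and 152 FPKM at 0 min against 4.59 to 18.0 FPKM after clamping (log2 fold change -2.87, SE 0.36). Irf1 (-1.91) and Stat2 (-1.40) had the same low replicate 1, at 8.82 and 5.69 FPKM. Irf9, the remaining part of the ISRE-binding complex, had a log2 fold change of -0.96 and was not called. Without single kidneys at 0 min the count was 4, 3 and 3 (without replicates 1, 2 and 3), with Irf9 added in the first. The kinases were not called: Jak1 at 0.17, Tyk2 at 0.19 and Jak2 at -0.13 on the log2 scale.

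Other interferon targets were high in the same kidneys. All 6 immunity-related GTPases and 8 of 10 guanylate-binding proteins, both families of interferon-induced GTPases that attack the vacuoles of intracellular pathogens, fell over the clamped groups together. Tgtp1 went from 9.3, 613 and 535 FPKM at 0 min to 0.53 to 6.03 FPKM (log2 fold change -5.51), and Gbp6 from 17.7, 466 and 291 FPKM to 0.36 to 3.37 FPKM (-5.86). Of these GTPases 5 of 6 and 5 of 10 lay above every clamped kidney also in 0 min replicate 1, against 9.63% of all genes tested. The same held for 1 of the 7 antiviral members, which is near that share. The median log2 fold change was -4.27 for the immunity-related GTPases and -2.22 for the guanylate-binding proteins, against -1.53 for the 7 antiviral members, -0.85 for the 2 chemokines and -0.0031 for all genes tested. Which of these lists differed from each other was not tested. Without 0 min replicate 1, 2 or 3 all 6 immunity-related GTPases were still called, and 9, 7 and 7 guanylate-binding proteins. Tgtp1 and Tgtp2 are close copies whose reads may have been shared.

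Of 26 other antiviral interferon-stimulated genes in the table, 12 fell and none rose over the clamped groups together, with a median of -0.95. The largest decreases were in Bst2, which tethers budding virus (27.2, 173 and 180 FPKM at 0 min, 13.2 to 36.9 FPKM after clamping, log2 fold change -2.04), then in Parp14, Rtp4 (-1.82) and Xaf1 (-1.60). The count was 19 without 0 min replicate 1 and 8 without replicate 2 or 3; Bst2, Parp14, Rtp4 and Xaf1 were called in each. Of 5 genes of ISG15 conjugation 3 fell: Usp18, which removes ISG15 (-1.36), Herc6, its ligase (-1.29), and the conjugating enzyme Ube2l6 (-1.20); Uba7 (-0.73) and Trim25 (-0.43) were not called, and the count was 4, 1 and 1 without replicates 1, 2 and 3. Of 12 nucleic acid sensors and adaptors 1 fell, Dhx58 (-1.06), which was not called without replicate 2 (-0.79) or 3 (-0.77). Of 6 genes that restrain the pathway Socs1 fell (-1.10) and Socs3, which restrains mainly interleukin 6 signals, rose (1.79). The call of Socs1 was lost without replicate 2 (-0.72) or 3 (-0.93), and that of Socs3 held in each refit.

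On the receiving side of the chemokines, Cxcr3 stood at 0.73, 0.27 and 0.31 FPKM at 0 min and had a median of 0.11 FPKM after clamping (log2 fold change -0.42, not called). Cxcr3 too was so low at 0 min that no decrease could pass the fold threshold. Dpp4, a peptidase that clips CXCR3 ligands, was not called either (-0.26). Pf4, a platelet chemokine that also binds a form of CXCR3, rose (1.55, SE 0.22), from 0.82, 0.45 and 0.11 FPKM at 0 min to 1.12 to 11.8 FPKM; 2.2% of all genes were called higher, and Pf4 was called without any 1 of the kidneys at 0 min.

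**Figure D4:**
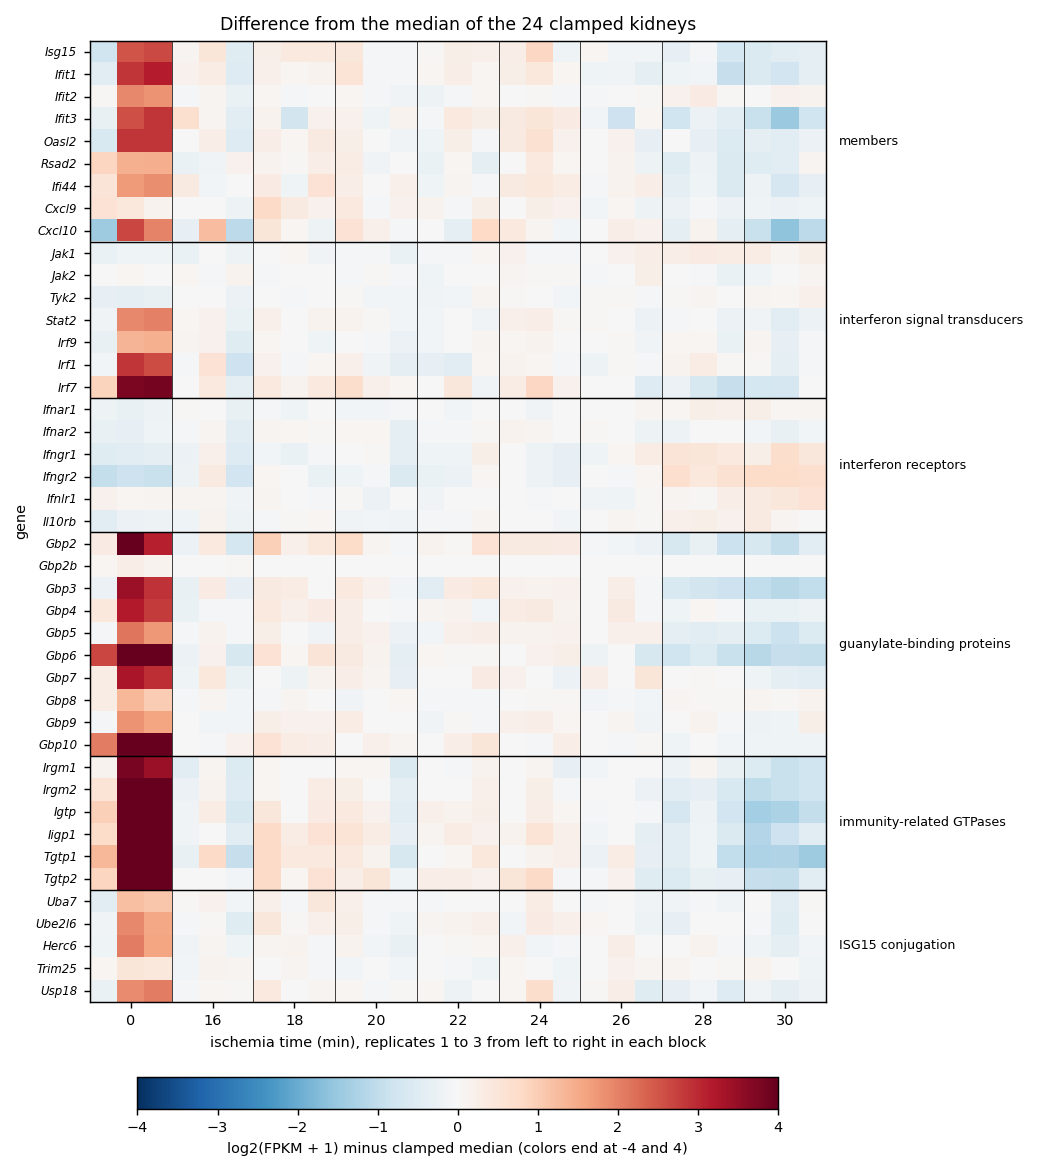
Difference of log2(FPKM + 1) from the median of the 24 clamped kidneys, for the 9 genes and 5 lists of the pathway (rows), in each kidney (columns, 3 replicates per ischemia time in minutes). Replicates 2 and 3 at 0 min are high in the members except Cxcl9, in Stat2, Irf9, Irf1 and Irf7, in the guanylate-binding proteins and in all 6 immunity-related GTPases. They lie above all clamped kidneys in none of the 6 receptors.

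The second question is whether the length of ischemia made a difference among clamped kidneys. Between neighbouring times limma called 0 of 9 members in each of 7 comparisons, and also 0 of 9 for 30 against 16 min. Of all genes, 0% were called in the 5 comparisons up to 26 min. The share was 1.5% between 28 and 26 min, 1.05% between 30 and 28 min, and 6.23% between 30 and 16 min. An unadjusted p under 0.05 was reached by Cxcl9 (18 min above 16 min), by Rsad2 (28 min below 26 min) and by Ifit3 (30 min below 16 min), and by 0 members in the other 5. In fits of the 2 groups alone the count called was also 0 in all 8, with 0 to 3 members at an unadjusted p under 0.05.

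In single comparisons some groups were apart. The kidneys at 30 min held 12.4, 7.94 and 13.2 FPKM of Ifit3, all below the 13.4, 20 and 17.4 FPKM at 28 min (16.4% of all genes had all kidneys lower in that comparison). Cxcl10 at 30 min, with 5.76, 3.14 and 5.08 FPKM, was likewise below the 8.78, 12.9 and 8.88 FPKM at 28 min. Against 24 min, the kidneys at 26 min were all lower in Ifit1, Ifit3 and Ifi44 (5.14%), and against 26 min those at 28 min were all lower in Rsad2 and Ifi44 (16.4%). Separations in the other direction were fewer. All kidneys were higher in Cxcl9 at 18 than at 16 min (3.6% of all genes), in Ifi44 at 24 than at 22 min (5.39%) and in Ifit2 at 28 than at 26 min (20%). For the last 2 neighbouring pairs these counts of 1 or 2 of 9 members are near the share of all genes.

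Fitted as a line over 16 to 30 min with all 27 kidneys sharing 1 estimate of the spread, 3 of 9 members fell with ischemia time, against 20.1% of all genes: Rsad2, Ifi44 and Cxcl9. None rose, against 26.7% of all genes. That estimate includes the wide spread at 0 min. In a fit of the 24 clamped kidneys alone, added after the data were seen, 8 of 9 members fell (20.3% of all genes) and Ifit2 rose (26.6%). The fitted changes over the 14 min were -0.92 for Ifit3 (adjusted p = 0.0014 from limma), -0.84 for Cxcl10, -0.62 for Isg15, -0.61 for Ifit1 and -0.50 for Ifi44 on the log2 scale. They were -0.36 for Oasl2, -0.36 for Cxcl9 and -0.35 for Rsad2. Ifit2 had a fitted change of 0.18 (adjusted p = 0.026). In that fit 2 members were lower at 30 than at 16 min and none higher (3.69% and 2.57% of all genes): Ifit3 by -1.16 and Cxcl10 by -1.14 (95% interval -1.98 to -0.30).

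The slopes rested on the longest times. Without the 30 min group, 0 of 9 members were called by limma, 5 had an unadjusted p under 0.05, and the slopes of 8 were still negative, with 12.1% of all genes called lower and 16.5% higher. Without the 28 min group 6 were called, and without the 18 min group also 6; leaving out another time gave 8 or 9. Cxcl10 was the member that depended most on 30 min: its slope went from -0.060 to -0.012 per min without that group. Leaving out 1 clamped kidney at a time gave 5 to 9 calls, with the lowest count without 30 min replicate 2.

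**Figure D5:**
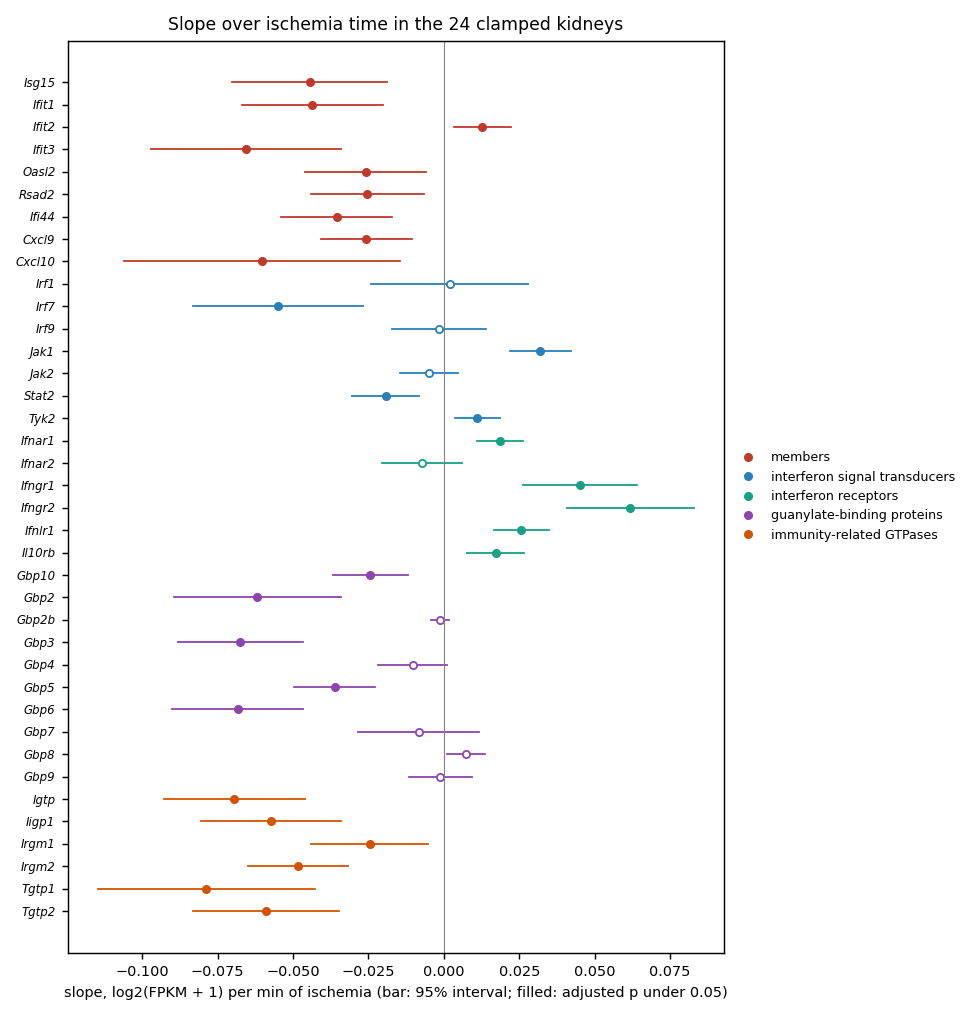
Slope of log2(FPKM + 1) per minute of ischemia in the 24 clamped kidneys for the 9 genes and 4 lists of the pathway; bars are 95% intervals and filled circles have an adjusted p under 0.05. In the members 8 slopes lie below 0 and that of Ifit2 above it, and 5 of 6 receptors lie above 0.

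In the same fit 5 of 6 receptors rose with ischemia time, Ifngr2 by 0.062 per min and Ifngr1 by 0.045 per min, and none fell. Replicate 3 at 16 min was the lowest clamped kidney in Ifnar1, Ifnar2, Ifngr1, Ifngr2 and Il10rb. For Ifngr2 it held 14.4 FPKM, against 21.9 and 32.6 FPKM in 16 min replicates 1 and 2. The slopes of the lists were not refitted without this kidney. Among the transducers Irf7 and Stat2 fell, and Jak1 and Tyk2 rose. All 6 immunity-related GTPases, 5 of 10 guanylate-binding proteins and 10 of 26 other antiviral genes fell, and 2 of the latter rose, beside 20.3% of all genes that fell and 26.6% that rose. Tissue markers moved along with ischemia time as well. The 11 kidney epithelial markers summed to 3951 to 5710 FPKM at 20 min, 1928 to 2309 FPKM at 28 min and 1496 to 3497 FPKM at 30 min, and 7 fell with time. All 5 neutrophil markers rose, from a sum of 5.15 to 7.33 FPKM at 20 min to 22.4 to 30.3 FPKM at 30 min. T cell markers, of which 5 of 8 fell, summed to 2.78 to 3.33 FPKM at 20 min and 1.32 to 1.88 FPKM at 30 min, and 4 of 7 macrophage markers fell. Their part in the slopes of the members was not tested.

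Within the clamped kidneys the antiviral genes varied together, with Ifit2 apart. Over 24 kidneys, which share ischemia times and library processing, Pearson's r on quantile-normalized log2 values ran from 0.40 to 0.89 (median 0.65) over the 15 pairs without Ifit2. The 6 pairs with Ifit2 had r between -0.41 and -0.07. Cxcl10 had a median r of 0.54 with the antiviral genes, Cxcl9 a median of 0.52, and the chemokines had 0.54 with each other. Over all 27 kidneys the pairs with Ifit2 had r of 0.76 to 0.90 and a median Spearman's rho of 0.066.

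The lowest values of the clamped kidneys fell in 4 animals and the highest in 7. Replicate 3 at 28 min was the lowest of the 24 in 5 members (Isg15, Ifit1, Oasl2, Rsad2 and, tied, Cxcl9), and replicate 2 at 30 min in 3 (Ifit3, Ifi44 and Cxcl10). Replicate 2 at 24 min was the highest in 3 members, Isg15, Oasl2 and Rsad2, and the highest values of the other 6 members fell in 6 kidneys between 16 and 28 min.

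Of 12338 other genes with a mean of at least 1 FPKM, the 10 whose pattern over 27 kidneys was most like the mean of the 7 antiviral members had r between 0.97 and 0.99, and 8 of them were in the lists above. Apol9b led (r = 0.985), followed by Stat2, Iigp1, Irgm2, Tgtp2, Bst2, Igtp, Irf7, Ifi47 and Tgtp1. In the 24 clamped kidneys alone the range was 0.85 to 0.90, Irf7 led (r = 0.895), and Oas1a, Bst2, Iigp1, Stat2, Apol9b, Limd2, Casp6, Zbp1 and Pde6d followed. For the 2 chemokines Gbp2 was the most alike in both sets, with r = 0.882 over 27 and 0.919 over 24 kidneys. It was followed over 27 kidneys by the complement gene C4b and by Ubd, and over 24 by Tgtp1 and the class II gene H2-Ab1. These coefficients describe 27 or 24 libraries and were not tested.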

How the data were processed

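RNA-Seq values of 27 left kidneys, 3 per ischemia time, were taken from 1 table. Per the file headers the authors deposited FPKM, on a linear scale and to 2 decimals. The submitters' processing notes name GRCm38.p6, Bowtie2, RSEM and DESeq2 without roles; the annotation is not given in the sources used here. Groups came from the sample labels. All 27 columns were used.

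FPKM + 1 was log2 transformed and quantile normalized, 2 steps that the study's methods also name (the 1 was added here, and its background correction and median polish were not applied), for the 18188 of 19392 genes above 0 in at least 3 kidneys, and fitted in limma 3.58.1 (R 4.3.3) with 9 groups, empirical Bayes and Benjamini-Hochberg adjustment. A call needed an adjusted p under 0.05 and an absolute log2 fold change above 1 (slopes: adjusted p alone). Fold changes understate low genes. On simulated data with 200 genes changed by a log2 value of 2, the comparison of 30 with 0 min recovered 198, with 0 false calls. The simulated spread of each gene was the same in all groups, so this does not cover the wider spread at 0 min. Alternatives were other pseudocounts, scalings, filters and spreads, a replicate block and left-out kidneys (for the other lists, only those at 0 min, chosen after seeing the data). Values printed as FPKM are as deposited. Read depth is unknown beyond its relative size, so no counting intervals are given.

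Promoters are from RefSeq (GRCm38.p6), gene positions from GENCODE M21. The named genes were the 9 members; of other lists, ligands, receptors, transducers and CXCR3 genes, up to 4 further genes per list with the largest change over the clamped groups, and the 10 most alike genes. Copies and neighbours (Ifit3b, Art3) and marker genes were named after their values were seen. The members and lists were chosen with earlier results of these data known. Same-numbered kidneys deviated together no more than others (median r = -0.0087 over 108 pairs, from -0.42 to 0.48). This check showed no pairing of the mice by number and cannot exclude one. One gene is not reported here.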

Additional observations from a re-analysis of the deposited data

How the results depend on the processing

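Under the alternatives run, 0 called member values reversed; 304 recomputed counts of members stayed within 1.5 times the reported ones and 32 did not. Fits of the 2 compared groups alone gave 0, 1, 1, 2, 1, 1, 2 and 2 members lower than 0 min from 16 to 30 min in place of 6, 6, 6, 6, 5, 7, 7 and 8. The share of all genes called in those fits is not given. Without quantile normalization 3 were called at 24 min. With the 24 clamped kidneys alone, an alternative chosen after seeing the data, 9 had a slope and 2 differed between 30 and 16 min, and 0 had a slope once the 30 min group was left out too. Leaving out 1 kidney of a comparison gave 3 to 8 members at 16, 18, 20 and 22 min, 2 to 8 at 24 min, 5 to 8 at 26 and 28 min, 6 to 8 at 30 min and over the clamped groups, 1 to 4 for the slope over all kidneys, 5 to 9 for the slope over clamped kidneys, and 5 to 9 for the permutation test. With the replicate block the count at 24 min was 4 in place of 5 and every other count of members called was as reported. The cause was not tested. Depth is unknown, and 3 kidneys per group cannot reach an exact p below 0.1.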

Other observations

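Of the 26 other antiviral genes, 2 were higher and 1 was lower at 30 than at 16 min. In this comparison limma called Isg20, an exonuclease of RNA (log2 fold change 1.09, adjusted p = 0.012), and Oasl1, a relative of Oasl2 (1.18, adjusted p = 0.047), as higher, while 2.56% of all genes were called higher. Ifi27l2a was called lower (-1.80, adjusted p = 0.013). These 3 were chosen after their values were seen. Isg20 stood at 1.57, 2.3 and 2.88 FPKM at 0 min and had a median of 4.36 FPKM and a highest value of 13.5 FPKM after clamping. Oasl1 stood at 1.84, 14.1 and 18.8 FPKM at 0 min, against a median of 2.54 FPKM and a highest value of 8.84 FPKM after clamping, and its 30 min kidneys held 5.37 to 8.84 FPKM. The lowest clamped kidney was 16 min replicate 3 for Isg20 (1.68 FPKM) and for Oasl1 (1.37 FPKM), and these lists were not refitted without it.

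Ifitm3, which blocks the entry of enveloped viruses, was one of the 26 other antiviral genes with no difference called over the clamped groups (0.08 on the log2 scale, SE 0.25). It stood at 60.2, 170 and 201 FPKM at 0 min and between 80.9 and 226 FPKM after clamping. Sting1, the adaptor for cytosolic DNA, rose at 30 against 0 min (1.34, adjusted p = 0.00020 from limma; 1.22 to 1.49 and called without any 1 of the kidneys at 0 min), from 2.36, 1.85 and 3.36 FPKM at 0 min to between 7.62 and 10.6 FPKM. Ifitm3 and Sting1 were also chosen after their values were seen.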
